A study of Mus musculus with 18 samples.

Results

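The complement system is a cascade of plasma and membrane proteins that tags cells and particles for clearance. Its classical arm starts with the C1 complex, in which C1r activates C1s, which cuts C4 and C2, and its alternative arm is built from factor B and factor D, the latter also called adipsin. Both arms meet at C3, and inhibitors in plasma and on cell surfaces hold them in check. Most circulating complement comes from the liver, but stromal cells and fibroblasts also transcribe parts of the cascade, and mature adipocytes are a known source of adipsin.

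Described here are 8 mouse complement genes out of 48023 genes in the count table. They were chosen by symbol, and their Ensembl identifiers were matched to a GENCODE annotation of the mouse genome build GRCm38. They comprise the C1 proteases C1ra (ENSMUSG00000055172) and C1s1 (ENSMUSG00000038521), the C4 gene C4b (ENSMUSG00000073418), and the central component C3 (ENSMUSG00000024164). Cfb (ENSMUSG00000090231) and Cfd (ENSMUSG00000061780) encode factor B and adipsin, and Serping1 (ENSMUSG00000023224) and Cd55 (ENSMUSG00000026399) encode C1 inhibitor and decay-accelerating factor. The cells were immortalized brown preadipocytes, a mouse line established from the stromal vascular fraction of brown adipose tissue. They received vehicle (Veh) or fibroblast growth factor 6 (FGF6), a secreted growth factor, for 4, 8 or 24 h, and all 6 groups shared the same line with no other agent or allele named in the labels. The study sequenced RNA to find pathways that respond to FGF6, from 3 libraries per group and 18 in all. Because all libraries came from the same cell line, they do not sample separate animals. The labels do not state whether the libraries of a group came from separate cultures, so p-values measure only the spread between these libraries, which may be technical.

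The libraries held 24327816 to 33471980 counted reads, and a level of 3 counts corresponded to 0.0905 to 0.126 CPM, the count per 1000000 reads of the library total after a trimmed-mean (TMM) correction. Among the marker genes listed for preadipocytes and stromal cells, 9 of 10 passed the filter on low counts, while Dlk1 was at 0 in all libraries. The summed level of that list ran from 6024 to 6459 CPM in vehicle and from 1461 to 1531 CPM in FGF6 cells at 24 h. Of its genes, 7 were lower at that time, against 37.9% of all tested genes. The other 2, Cd34 and Lum, were higher, against 35.9%. Col1a1 alone ran from 2990 to 3278 CPM in vehicle and from 418 to 482 CPM in FGF6 cells at 24 h. Mature adipocyte markers summed to 156 to 178 CPM in vehicle and 63.4 to 70.1 CPM in FGF6 cells at 24 h, with Lep at 0 throughout. Most of that sum was Fabp4, at 149 to 173 CPM in vehicle and 63.3 to 69.8 CPM in FGF6 cells. Liver cell markers reached at most 0.168 CPM in any library. Mural cell markers summed to 49.9 to 54.1 CPM with vehicle and 106 to 113 CPM with FGF6 at 4 h, 23.2 to 28.1 against 41.4 to 44.6 CPM at 8 h, and 30.6 to 33.9 against 28.4 to 30.4 CPM at 24 h, so that the groups were separate at each time. Most of the mural sum was Cspg4, at 47.5 to 52.5 CPM with vehicle and 105 to 111 CPM with FGF6 at 4 h. Of the 3 mural genes, 1 was higher and 1 lower at 4 h, beside 28.6% and 34.2% of all tested genes. At 8 h 1 was higher and 2 were lower, beside 32.4% and 38.4%. At 24 h 1 was higher and 1 lower, beside 35.9% and 37.9%. The part of the stromal, adipocyte and mural lists in the complement results was not tested. Bulk RNA cannot tell fewer cells of a type from less RNA per cell.

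Replicate 3 of the vehicle group at 24 h stood apart from its group. Its counts differed from those of the other two libraries by a chi-square of 38.0 and 41.2 per degree of freedom, against 2.44 to 7.62 for the other 16 pairs of libraries within groups. Results that use the 24 h vehicle cells are given with all libraries. For those of the 8 genes that were tested, the main results are also given without that library, in a comparison partly chosen after seeing the data. Marker sums, ratios within libraries and most values of other complement genes are given with all libraries only.

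RefSeq (GRCm38.p6) gave a promoter window for 5 of the 8 genes, each running from 250 bases before to 50 bases after an annotated start, and none for C4b, Cfb and Serping1. The windows of C3 and C1ra and the first of 2 windows of C1s1 are shown. These genes had the highest levels per length and were all lower with FGF6 at 8 and 24 h. Capitals mark matches, on either strand, to a C/EBP pattern (TTNNGNAA) or a GAS pattern (TTCNNNGAA), where N is any base.
C3, chr17:57228087-57228386, minus strand: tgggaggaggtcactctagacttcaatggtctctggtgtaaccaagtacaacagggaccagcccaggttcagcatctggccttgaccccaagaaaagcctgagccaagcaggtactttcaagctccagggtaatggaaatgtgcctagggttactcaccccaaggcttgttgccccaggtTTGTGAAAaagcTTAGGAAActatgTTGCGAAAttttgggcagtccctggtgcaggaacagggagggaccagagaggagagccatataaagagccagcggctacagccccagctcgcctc
C1ra, chr6:124512371-124512670, plus strand: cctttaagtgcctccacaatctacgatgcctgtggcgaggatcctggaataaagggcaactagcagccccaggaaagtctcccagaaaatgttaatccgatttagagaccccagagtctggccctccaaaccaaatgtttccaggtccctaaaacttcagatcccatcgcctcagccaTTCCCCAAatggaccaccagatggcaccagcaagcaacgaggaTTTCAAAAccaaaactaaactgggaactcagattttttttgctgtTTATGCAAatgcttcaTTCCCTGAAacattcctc
C1s1, chr6:124542310-124542609, minus strand: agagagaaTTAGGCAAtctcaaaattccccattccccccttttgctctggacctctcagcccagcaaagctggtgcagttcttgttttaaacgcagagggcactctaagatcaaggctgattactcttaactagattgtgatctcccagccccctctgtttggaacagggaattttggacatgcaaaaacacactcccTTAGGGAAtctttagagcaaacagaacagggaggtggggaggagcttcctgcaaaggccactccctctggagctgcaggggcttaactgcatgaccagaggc

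The C3 window held 3 C/EBP matches, from 70 to 38 bases before the start. That of C1ra held 3 C/EBP matches and a GAS match, the GAS match ending 40 bases after the start. The RefSeq start of C1ra used here lies downstream of the GENCODE gene start (124512405), so most of that window lies inside the gene. The C1s1 window shown held 2 C/EBP matches. A second C1s1 window (chr6:124542272-124542571), from another annotated start, held only 1. No NF-kB pattern (GGNNTTNCC) occurred in these windows, while Cfd and Cd55 held 1 each. C/EBP matches occurred in 40.7% of the 32851 windows of that length in the table, GAS matches in 8.3% and NF-kB matches in 16.0%. A match describes letters and is not evidence of binding.

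Of the 8 genes, 6 passed the filter on low counts and were tested with edgeR's quasi-likelihood test, adjusted over 15071 genes. All 6 were lower with FGF6 at 24 h, and C1ra, C1s1, C4b and C3 were lower by far more at 24 h than at 8 h. At 4 h 2 of the 6 were lower at a false discovery rate (FDR) under 0.05, against 34.2% of all tested genes, and none was higher, against 28.6%. At 8 h 5 were lower against 38.4% of genes, and none was higher, against 32.4%. At 24 h all 6 were lower against 37.9% of genes, and none was higher, against 35.9%. Lower calls were thus common across the transcriptome. The median log2 fold change of the 6 genes was -0.06, -1.03 and -4.58 at 4, 8 and 24 h, beside -0.05, -0.05 and -0.02 for all tested genes. A call together with a decrease of at least 2-fold was reached by 4 of the 6 at 8 h, against 10.9% of genes, and by 6 at 24 h, against 15.3%. All FGF6 libraries lay below all vehicle libraries for 1 of the 6 at 4 h, 5 at 8 h and 6 at 24 h, against 36.1%, 39.6% and 38.1% of genes.

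Without vehicle replicate 3 of 24 h, all 6 genes were again lower at 24 h, against 34.2% of the 15385 genes then tested, with a median log2 fold change of -4.57. The log2 fold changes were -5.72 (FDR = 5.05e-24) for C1s1, -5.05 (FDR = 2.15e-14) for C4b, -4.74 (FDR = 1.13e-24) for C1ra and -4.40 (FDR = 3.56e-25) for C3. Those of the less abundant genes were -2.75 (FDR = 0.00471) for Cfb and -1.82 (FDR = 7.75e-07) for Serping1.

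**Figure D1:**
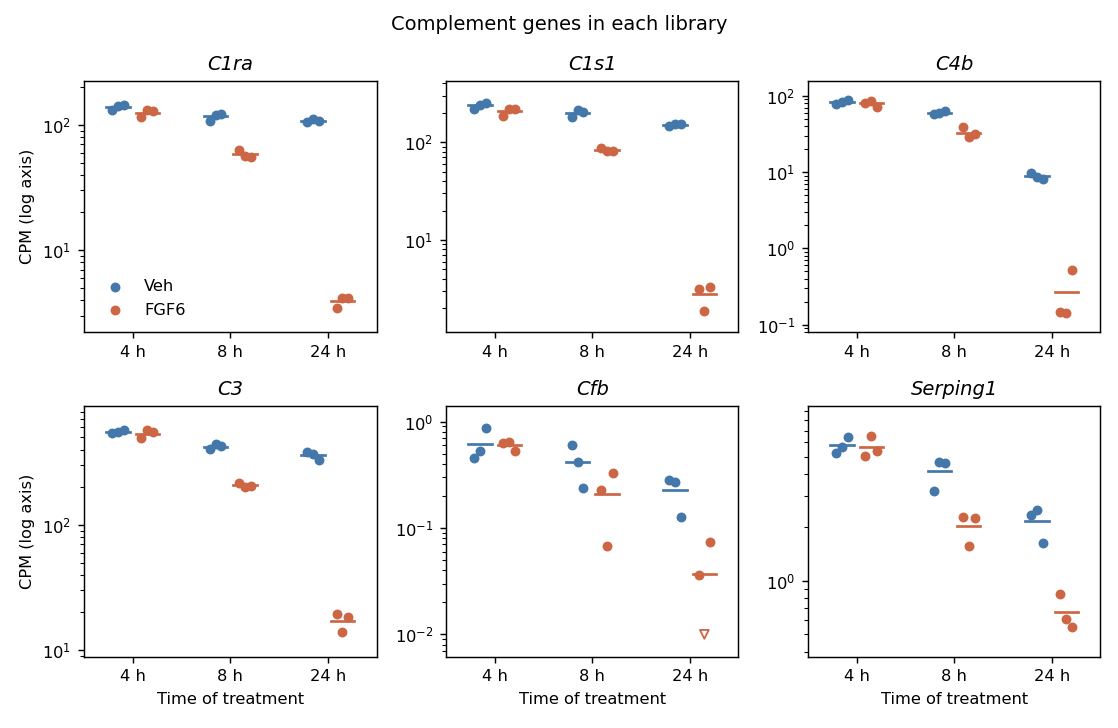
Level of 6 complement genes in each library, in CPM on a log axis that differs between panels, against time of treatment. Points are libraries, bars are means of 3, and the open triangle marks a library with 0 counts, drawn at the foot of the axis. Vehicle and FGF6 points overlap or nearly touch at 4 h and are separate for all 6 genes at 24 h.

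C1ra and C1s1, the C1 proteases, lie beside each other on chromosome 6, C1ra at 124512405 to 124523443 on the plus strand and C1s1 at 124530345 to 124542359 on the minus strand. At 4 h C1ra measured 132, 142 and 143 CPM in the vehicle libraries and 116, 131 and 129 CPM in the FGF6 libraries. C1s1 measured 219, 240 and 254 CPM with vehicle and 187, 220 and 217 CPM with FGF6. The groups lay close to each other, just apart for C1ra and overlapping for C1s1. The log2 fold changes were -0.15 ± 0.0529 (SE, FDR = 0.0155) for C1ra and -0.19 ± 0.0663 (SE, FDR = 0.0136) for C1s1. Neither 4 h call held in every setting. The C1s1 call was lost with DESeq2 (-0.17, FDR = 0.0817). Without FGF6 replicate 1 the values were -0.07 (FDR = 0.274) for C1ra and -0.10 (FDR = 0.224) for C1s1. Without vehicle replicate 3 they were -0.13 (FDR = 0.0654) and -0.14 (FDR = 0.0916), and without vehicle replicate 2 the C1ra value was -0.13 (FDR = 0.0655).

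At 8 h C1ra measured 107, 120 and 123 CPM with vehicle and 62.6, 56.2 and 55.6 CPM with FGF6. C1s1 measured 180, 212 and 206 CPM with vehicle and 86.5, 81.9 and 81.6 CPM with FGF6. For both genes every FGF6 library was below every vehicle library. The decrease was 2.00-fold for C1ra (log2 -1.0 ± 0.0558, SE, FDR = 2.2e-14) and 2.39-fold for C1s1 (log2 -1.26 ± 0.0693, SE, FDR = 1.89e-14). At 24 h C1ra measured 106, 111 and 108 CPM with vehicle against 3.47, 4.14 and 4.18 CPM with FGF6. C1s1 measured 147, 154 and 153 CPM against 3.17, 1.89 and 3.27 CPM. Vehicle cells still carried both transcripts at 106 CPM or more, and FGF6 cells retained 3.63% of the vehicle mean for C1ra and 1.83% for C1s1. The decrease was 27.5-fold for C1ra (log2 -4.78 ± 0.0817, SE, FDR = 4.71e-25) and 54.6-fold for C1s1 (log2 -5.77 ± 0.108, SE, FDR = 2.63e-24). Among the 15071 tested genes, 103 had a lower log2 fold change at 24 h than C1s1 and 197 had a lower one than C1ra.

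The ratio of the pair within libraries was also lower with FGF6 at the later times. Counts per exonic base of C1s1 relative to C1ra within a library were 1.59, 1.61 and 1.69 in vehicle cells at 4 h and 1.55, 1.59 and 1.61 in FGF6 cells. By 24 h the ratios were 1.32, 1.32 and 1.35 with vehicle and 0.872, 0.435 and 0.744 with FGF6, so that C1ra exceeded C1s1 per length only in the FGF6 libraries of that time. The groups were separate at 8 and 24 h (exact permutation test, two-sided, p = 0.1 at each, the smallest that 3 against 3 libraries allow) and overlapped at 4 h (exact p = 0.5). In C1s1, 18.4% of the exonic bases are shared with the antisense gene Gm16567, which was at 0 in all libraries. The neighbouring copies C1rb and C1s2 had 0 to 13 counts in any library and 0 in all 3 FGF6 libraries at 24 h.

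**Figure D2:**
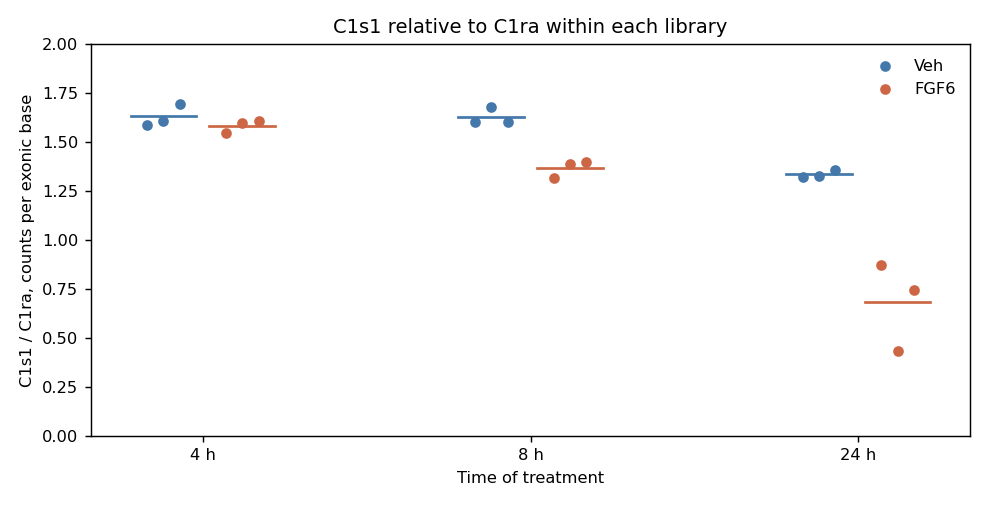
Counts per exonic base of C1s1 divided by those of C1ra in each library, against time of treatment, with points for libraries and bars for means of 3. Vehicle means fall from 1.63 at 4 h to 1.33 at 24 h, and FGF6 means fall from 1.58 to 0.684.

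C4b, which encodes the C4 protein cut by C1s, lies in the complement cluster of chromosome 17 (34728380 to 34743882, minus strand). At 4 h it measured 78.8, 83.8 and 87.5 CPM with vehicle and 80.3, 86.7 and 72.1 CPM with FGF6. These groups overlapped, with a log2 fold change of -0.06 ± 0.0793 (SE, FDR = 0.521). At 8 h it measured 57.5, 59.5 and 63.8 CPM with vehicle and 38.8, 28.7 and 31.4 CPM with FGF6, a 1.82-fold decrease (log2 -0.87 ± 0.0861, SE, FDR = 1.89e-09). At 24 h the vehicle libraries held 9.77, 8.72 and 8.07 CPM and the FGF6 libraries 0.146, 0.143 and 0.514 CPM, the latter from 4, 4 and 14 counts. The transcript was therefore low in vehicle cells and near the limit of detection in FGF6 cells. The fitted decrease at 24 h was 32.8-fold (log2 -5.04 ± 0.271, SE, FDR = 8.25e-15), and without FGF6 replicate 3, the library with 14 counts, the log2 value was -5.86.

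C4a, a close copy of C4b in the same cluster, was not called at any time. It measured 0.490, 0.875 and 1.22 CPM with vehicle and 0.766, 0.822 and 1.06 CPM with FGF6 at 24 h, with overlapping groups and a log2 fold change of 0.06 ± 0.298 (SE, FDR = 0.862). Per exonic base C4b exceeded C4a 50.8 ± 7.25-fold (SD, n = 3) in vehicle cells at 4 h and 13.3 ± 7.54-fold (SD, n = 3) at 24 h. In FGF6 cells at 24 h the ratio was 0.308 ± 0.189 (SD, n = 3), below every vehicle library of that time (exact permutation test, two-sided, p = 0.1, the smallest possible). How reads matching both copies were counted is not given in the sources used here, so the low C4a level and the smallest C4b counts are uncertain.

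C3, on which all arms converge, lies on chromosome 17 (57203970 to 57228136, minus strand) and was the most abundant of the 8 genes per length. At 4 h it measured 540, 551 and 572 CPM with vehicle and 490, 568 and 551 CPM with FGF6. The groups overlapped, and the log2 fold change was -0.05 ± 0.0665 (SE, FDR = 0.552). At 8 h it measured 405, 439 and 423 CPM with vehicle and 216, 200 and 205 CPM with FGF6, a 2.04-fold decrease (log2 -1.03 ± 0.0679, SE, FDR = 6.84e-13). At 24 h the values were 382, 365 and 330 CPM against 19.5, 13.8 and 18.3 CPM. The lowest vehicle library was far above the highest FGF6 library, and 4.79% of the vehicle mean remained. The decrease was 20.9-fold (log2 -4.38 ± 0.0827, SE, FDR = 3.19e-24), and 279 tested genes had a lower log2 fold change.

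Cfb and Cfd, the alternative pathway genes among the 8, were at or near the limit of detection. Cfb (chromosome 17, 34856374 to 34862518, minus strand) had 14, 17 and 26 counts in the vehicle libraries and 17, 20 and 13 counts in the FGF6 libraries at 4 h, 19, 13 and 7 against 7, 2 and 8 at 8 h, and 8, 9 and 3 against 1, 0 and 2 at 24 h. Counts overlapped at 4 and 8 h and were separate at 24 h. Summed over the 24 h libraries, 3 counts with FGF6 against 20 with vehicle gave a library-size-corrected ratio of 0.155 with an exact 95% interval of 0.0295 to 0.523, which covers counting error only. The edgeR test called the 24 h difference (log2 -2.54 ± 0.808, SE, FDR = 0.00665). Without FGF6 replicate 3 that value was -3.37. At 8 h the log2 fold change was -1.05 ± 0.495 (SE, FDR = 0.0625), and it passed the threshold without vehicle replicate 3 (-1.31, FDR = 0.0277) or without FGF6 replicate 3 (-1.43, FDR = 0.0347), and with library size alone (-1.11, FDR = 0.0482). Without vehicle replicate 1 it was -0.69 (FDR = 0.286), and without FGF6 replicate 2 it was -0.61 (FDR = 0.296). Of the exonic bases of Cfb, 79.5% are shared on the same strand with Gm20547, a read-through gene that was at 0 in all libraries, and reads matching both genes may have been counted for neither.

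Cfd (chromosome 10, 79890853 to 79892655, plus strand), the adipsin gene, had 0 counts in 15 of 18 libraries and 1, 1 and 3 counts in the others. At this depth no difference was detectable. The listed mature adipocyte genes ranged widely, with Lep at 0, Adipoq at 0 to 23 and Fabp4 at 1718 to 5249 counts per library.

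Among the regulators, Serping1 (chromosome 2, 84765387 to 84775444, minus strand), whose product inactivates C1r and C1s, was low but measurable. At 4 h it measured 5.25, 5.63 and 6.48 CPM with vehicle and 5.07, 6.57 and 5.40 CPM with FGF6, with overlapping groups and a log2 fold change of -0.02 ± 0.155 (SE, FDR = 0.923). At 8 h it measured 3.22, 4.67 and 4.62 CPM with vehicle and 2.28, 1.58 and 2.26 CPM with FGF6, a 2.05-fold decrease (log2 -1.03 ± 0.186, SE, FDR = 2.36e-05). At 24 h it measured 2.35, 2.5 and 1.64 CPM against 0.839, 0.607 and 0.551 CPM, a 3.28-fold decrease (log2 -1.72 ± 0.258, SE, FDR = 1.6e-06). Groups were separate at both later times, and 30.8% of the vehicle mean remained at 24 h, a larger share than for C1ra, C1s1, C4b or C3. Cd55 (chromosome 1, 130439027 to 130462744, minus strand), which speeds the decay of C3-cleaving complexes on the cell surface, had 0 counts in all 18 libraries. A count of 0 allows a level of up to 0.0905 to 0.126 CPM in a library, from 3 counts.

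**Figure D3:**
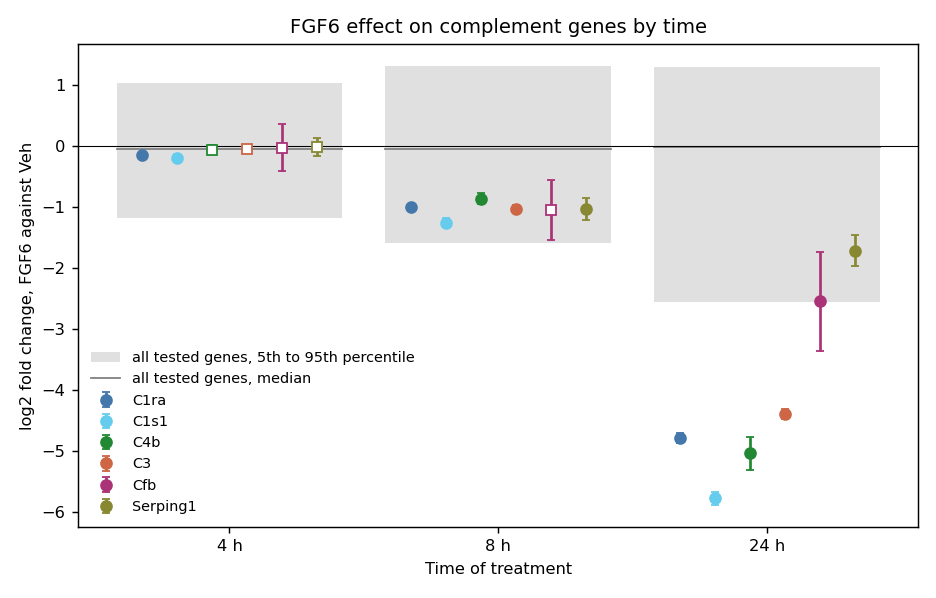
Log2 fold change of FGF6 against vehicle for 6 complement genes at each time, with bars for the SE. Filled circles passed an FDR of 0.05, open squares did not, and grey bands span the 5th to 95th percentile of all tested genes with a line at their median. The genes lie near 0 at 4 h and near -1.03 at 8 h, and C1ra, C1s1, C4b and C3 lie below the band at 24 h.

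The growth of the FGF6 effect with time was tested as a difference between the effects at 2 times, each against its own vehicle libraries. These differences share libraries with each other and with the comparisons above. Between 4 and 8 h the effect became more negative for 5 of the 6 genes, against 15.1% of all tested genes. The differences in log2 fold change were -1.06 ± 0.0957 (SE, FDR = 6.17e-09) for C1s1, -0.98 ± 0.0948 (SE, FDR = 2.01e-08) for C3, -0.85 ± 0.0768 (SE, FDR = 6.31e-09) for C1ra, -0.80 ± 0.117 (SE, FDR = 8.72e-06) for C4b and -1.01 ± 0.243 (SE, FDR = 0.00228) for Serping1. Between 8 and 24 h it became more negative for 4 of the 6, against 22.5% of genes, by -4.51 ± 0.136 for C1s1, -4.17 ± 0.315 for C4b, -3.78 ± 0.104 for C1ra and -3.35 ± 0.105 for C3 (SE). For Serping1 this later difference was -0.68 ± 0.327 (SE, FDR = 0.0948), and for Cfb it was -1.50 ± 0.987 (SE, FDR = 0.233). Between 4 and 24 h all 6 differences passed, against 25.2% of genes. Without vehicle replicate 3 of 24 h the Serping1 difference between 8 and 24 h passed (-0.83, FDR = 0.0404), which made 5 of the 6 more negative, against 21.4% of genes, and all 6 differences between 4 and 24 h passed, against 22.9%. On the log2 scale most of the effect on the C1 proteases, C4b and C3 thus arose between 8 and 24 h.

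Vehicle cells also changed over the same hours, which sets the level against which FGF6 was read. From 4 to 8 h 5 of the 6 genes fell with vehicle, against 21.7% of genes, from 8 to 24 h 4 fell, against 23.7%, and from 4 to 24 h all 6 fell, against 30.0%. Without vehicle replicate 3 of 24 h the counts were again 4 of 6 from 8 to 24 h, against 21.6% of genes. From 4 to 24 h they were again 6 of 6, against 29.3%. C4b moved furthest, 9.38-fold from 4 to 24 h (log2 -3.23 ± 0.101, SE, FDR = 1.36e-18), and 6.78-fold of this lay between 8 and 24 h. Serping1 fell 2.63-fold from 4 to 24 h (FDR = 1.94e-07) and Cfb 2.61-fold (FDR = 0.0101), or 2.40-fold (FDR = 1.56e-06) and 2.23-fold (FDR = 0.0462) without that library. The decreases were smaller for C1s1 (1.57-fold, FDR = 6.16e-09), C3 (1.54-fold, FDR = 1.14e-08) and C1ra (1.28-fold, FDR = 2.1e-06). In FGF6 cells all 6 genes fell in each interval, against 24.0% of genes from 4 to 8 h, 31.2% from 8 to 24 h and 36.0% from 4 to 24 h. From 4 to 24 h with FGF6 the log2 changes were -8.21 ± 0.184 for C4b, -6.23 ± 0.107 for C1s1, -4.99 ± 0.0811 for C1ra and -4.96 ± 0.0839 for C3 (SE). C4b in FGF6 cells at 24 h was thus below both the vehicle cells of that time and the FGF6 cells of earlier times.

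Levels were compared between genes as CPM per kilobase of exon. In vehicle cells at 4 h the order was C3 at 108 ± 3.18, C1s1 at 76.1 ± 5.66, C1ra at 46.6 ± 2.18, C4b at 14.6 ± 0.763, Serping1 at 2.49 ± 0.270 and Cfb at 0.218 ± 0.0783 CPM per kilobase (SD, n = 3), and no neighbours in this order overlapped. In FGF6 cells at 24 h it was C3 at 3.34 ± 0.579, C1ra at 1.32 ± 0.135, C1s1 at 0.888 ± 0.245, Serping1 at 0.286 ± 0.0657, C4b at 0.0470 ± 0.0375 and Cfb at 0.0130 ± 0.0130 CPM per kilobase (SD, n = 3). C1ra had moved above C1s1 and Serping1 above C4b, and only C4b and Cfb overlapped.

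Of 51 other complement genes, 19 passed the filter on low counts and 14 were at 0 in all libraries, among them C1qa, C1qb and C1qc, the subunits of the C1q recognition protein that C1r and C1s bind. At 4 h 3 of the 19 (15.8%) were lower and 5 (26.3%) higher, beside 34.2% and 28.6% of all tested genes. At 8 h 8 (42.1%) were lower and 6 (31.6%) higher, beside 38.4% and 32.4%. At 24 h 7 (36.8%) were lower and 6 (31.6%) higher, beside 37.9% and 35.9%. Without vehicle replicate 3 of that time 8 of 20 were lower, beside 34.2% of the 15385 genes then tested. In that fit 6 were higher, for which no share of all genes is given. With all libraries the shares at 8 and 24 h lay near those of all genes. The genes counted as higher at 8 and 24 h include Colec10, which passed the filter through the FGF6 groups. Those at 24 h also include Fcna, with 0 to 2 counts per vehicle library and 11 to 16 per FGF6 library. Fcna passed the filter only through the FGF6 group of 24 h. Those higher counts are therefore a description. The median log2 fold change of the 19 genes was -0.01, 0.08 and -0.04 at the 3 times. Values follow for genes that reached a mean of 1 CPM in any group.

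Among proteases and recognition molecules, C1rl, a C1r-like protease gene of the same chromosome 6 cluster, was lower at all 3 times. It measured 12.2, 11.9 and 14.4 CPM with vehicle and 3.81, 3.16 and 3.37 CPM with FGF6 at 4 h (log2 -1.90 ± 0.104, SE, FDR = 3.17e-14), and 24.6, 26.2 and 25.9 against 2.74, 3.79 and 3.30 CPM at 24 h (log2 -2.96 ± 0.0986, SE, FDR = 3.78e-19). Its vehicle level was higher at 24 h than at 4 h (log2 1.00 ± 0.0785, SE, FDR = 4.98e-11), whereas C1ra and C1s1 were lower, and it was separate between groups from the earliest time. Masp1, a protease of the lectin pathway, measured 36.5, 40.8 and 37.2 CPM with vehicle and 66.3, 74.6 and 69.7 CPM with FGF6 at 4 h, an increase of 1.84-fold (FDR = 1.28e-13). It was 2.52-fold higher at 8 h (FDR = 1.83e-17) and overlapped at 24 h, with 20.4, 20.4 and 18 against 21.9, 19.9 and 20.5 CPM (log2 0.08 ± 0.0626, SE, FDR = 0.267). Its effect at 24 h differed from that at 4 h by -0.80 ± 0.0813 (SE, FDR = 6.57e-09). Colec10, a collectin that binds sugars, had 3, 5 and 5 counts with vehicle and 34, 35 and 19 with FGF6 at 8 h, and 20, 7 and 8 against 141, 134 and 135 counts at 24 h. It passed the filter on low counts through the FGF6 groups, so its values are given as a description. At 24 h it measured 0.701, 0.211 and 0.336 CPM with vehicle and 5.14, 4.79 and 4.95 CPM with FGF6. Masp2 and C4a passed at no time.

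**Figure D4:**
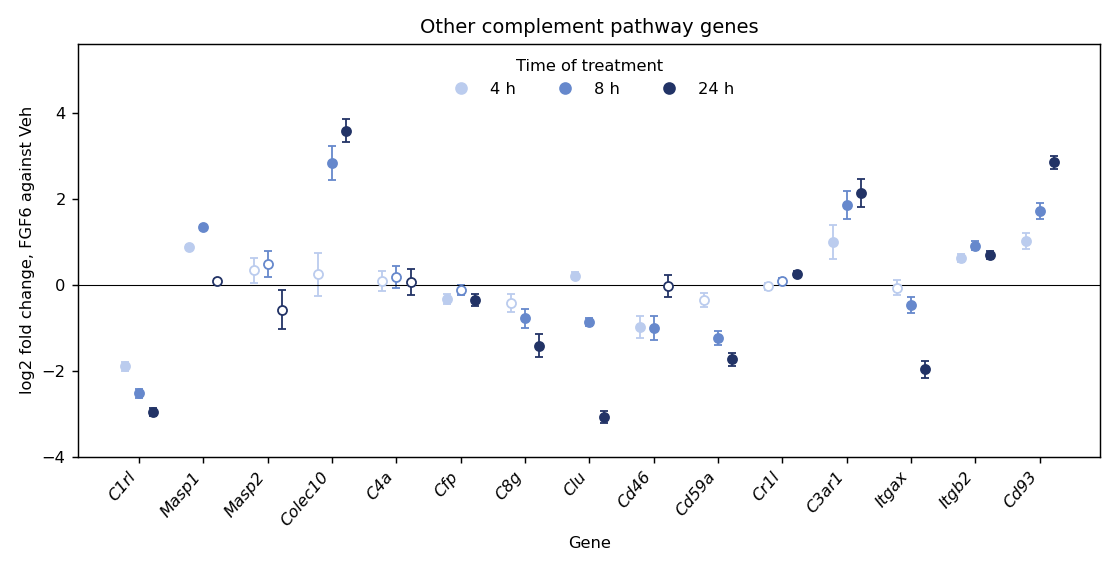
Log2 fold change of FGF6 against vehicle for 15 other complement genes at 4, 8 and 24 h, with bars for the SE. Filled points passed an FDR of 0.05 and open points did not. C1rl, Clu, Cd59a and Itgax lie at or below -1.74 at 24 h, while Colec10, Cd93 and C3ar1 lie at or above 2.13. Colec10 passed the filter on low counts through the FGF6 groups, so its points are a description.

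Regulators outside the 8 genes differed by time. Clu (clusterin), a secreted inhibitor of the terminal complex, measured 21.5, 20.6 and 23.8 CPM with vehicle and 22.3, 27.9 and 25.8 CPM with FGF6 at 4 h (log2 0.21 ± 0.0827, SE, FDR = 0.0309). It was lower at 8 h (log2 -0.86 ± 0.0933, SE, FDR = 8.38e-09) and at 24 h measured 11.6, 11.6 and 11.9 against 1.46, 0.929 and 1.76 CPM, an 8.43-fold decrease (FDR = 6.01e-16). Its 4 h groups overlapped, and the call was lost without vehicle replicate 1 (0.19, FDR = 0.0765), vehicle replicate 2 (0.17, FDR = 0.133) or FGF6 replicate 2 (0.15, FDR = 0.147). It was also lost with library size alone (0.11, FDR = 0.257) and with upper-quartile factors (0.15, FDR = 0.109). Cd59a, which blocks the terminal pore on cell membranes, was 2.37-fold lower at 8 h (FDR = 3.02e-07) and 3.34-fold lower at 24 h (FDR = 3.02e-10). Its 4 h value was -0.36 ± 0.172 (log2, SE, FDR = 0.0758), and -0.52 (FDR = 0.012) without vehicle replicate 2. Cd46, a membrane cofactor for C3b cleavage, was lower at 4 h (log2 -0.99 ± 0.261, SE, FDR = 0.00191) and 8 h (log2 -1.01 ± 0.273, SE, FDR = 0.00192) but not at 24 h (log2 -0.04 ± 0.258, SE, FDR = 0.908). Cr1l, the rodent regulator also called Crry, moved little, with 30.4, 28.2 and 29.3 CPM with vehicle and 39.9, 33 and 31.2 CPM with FGF6 at 24 h, a 1.19-fold increase (FDR = 0.00259).

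Properdin (Cfp), which steadies the alternative pathway convertase, was lower at 4 h (log2 -0.34 ± 0.114, SE, FDR = 0.0118) and 24 h (log2 -0.35 ± 0.138, SE, FDR = 0.0259). The 4 h call was lost without vehicle replicate 2 (-0.25, FDR = 0.09) or FGF6 replicate 1 (-0.26, FDR = 0.0868). The 24 h call was lost without vehicle replicate 1 (-0.16, FDR = 0.341), vehicle replicate 2 (-0.34, FDR = 0.0612), FGF6 replicate 1 (-0.31, FDR = 0.0888) or FGF6 replicate 2 (-0.21, FDR = 0.191), and with only the libraries of that time (-0.35, FDR = 0.0712). C8g, a subunit of the terminal complex, was 1.72-fold lower at 8 h (FDR = 0.0029) and 2.68-fold lower at 24 h (FDR = 3.23e-05).

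Of the 4 receptor genes tested, 3 were higher at all 3 times, beside 28.6%, 32.4% and 35.9% of all tested genes higher at 4, 8 and 24 h. C3ar1, the receptor for C3a, measured 0.560, 0.513 and 0.715 CPM with vehicle and 2.88, 2.61 and 2.28 CPM with FGF6 at 24 h, a 4.38-fold increase (FDR = 1.45e-06), after 3.60-fold at 8 h (FDR = 1.88e-05). At 4 h it was 1.99-fold higher (FDR = 0.0286), a call lost without vehicle replicate 1 (log2 0.83, FDR = 0.0967) or FGF6 replicate 3 (log2 0.61, FDR = 0.215), and with limma-voom (log2 0.89, FDR = 0.0644). Cd93, a C1q receptor-like membrane protein, measured 2.35, 2.02 and 2.31 CPM against 17.5, 14.8 and 15.5 CPM at 24 h, a 7.18-fold increase (FDR = 1.84e-14), and was higher at both earlier times. Itgb2, the shared chain of complement receptors 3 and 4, was 1.53-fold, 1.88-fold and 1.62-fold higher at 4, 8 and 24 h. Its partner Itgax was 3.92-fold lower at 24 h (FDR = 1.98e-09). The 8 h Itgax value was -0.47 ± 0.182 (log2, SE, FDR = 0.0249), and it was lost without vehicle replicate 1 (-0.38, FDR = 0.104), FGF6 replicate 2 (-0.32, FDR = 0.157) or FGF6 replicate 3 (-0.46, FDR = 0.0523), and with DESeq2 (-0.43, FDR = 0.058). These receptors are best known from leukocytes and endothelium. The summed leukocyte list was 14.9 to 16.0 CPM with vehicle and 44.5 to 47.0 CPM with FGF6 at 24 h. Of its 8 genes 4 were tested, and 3 were lower at 24 h, beside 37.9% of all tested genes. Only Cd14 (1111 to 1195 counts with FGF6) was higher, beside 35.9%. Ptprc and Adgre1 had at most 2 counts and Tyrobp 0 in any library. Endothelial markers summed to 0.995 to 1.33 CPM with vehicle and 3.71 to 5.65 CPM with FGF6 at 24 h, where Cdh5 had 79 to 114 counts with FGF6 and at most 3 with vehicle, and Pecam1 at most 7 counts anywhere. Their part in the receptor results was not tested.

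Over the whole list of 51, the FGF6 effect differed between 4 and 24 h for 12 of the 19 tested genes, more negative at 24 h for 7, against 25.2% of genes, and more positive for 5, against 28.3%. The 5 include Colec10, which passed the filter on low counts through the FGF6 groups. The 19 tested genes also hold Fcna, which passed it only through the FGF6 group of 24 h. The count of 5 is therefore a description. The 6 complement genes described above were all more negative.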

How the data were processed

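RNA of vehicle- and FGF6-treated preadipocytes was sequenced on an Illumina HiSeq. The authors aligned reads with STAR to GRCm38, counted them per GENCODE gene with featureCounts (Subread), and deposited raw counts without normalization. Tool versions, annotation release, strand setting and the handling of multi-mapping reads are not given in the sources used here. All 18 libraries, grouped by their labels, were used. Identifiers were matched to GENCODE symbols for 98.5% of 48023 genes.

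Genes were kept by filterByExpr over the 6 groups (15071). Scaling by TMM and the quasi-likelihood test were run in edgeR 4.0.16 (R 4.3.3), with Benjamini-Hochberg adjustment and an FDR under 0.05. The SE is the log2 fold change divided by the root of F. Ratios within libraries and marker sums were compared with an exact permutation test. Alternatives were library size alone, upper-quartile factors, no filter, at least 10 counts in every library, limma 3.58.1 with voom, DESeq2 1.42.0, only the libraries of a time point, a replicate block, an FDR under 0.25, a 2-fold minimum and leaving out each library. Leaving out vehicle replicate 3 of 24 h in the comparisons between times was added after seeing the data.

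The members and lists were chosen with earlier results of these data known. The text names the 8 members with all values, other complement genes with a mean of at least 1 CPM in any group, and near-identical copies or overlapping genes. Fcna, below that level, is named only for how it passed the filter. The genes at 0 named among the other complement genes and the single marker genes were picked after their values were seen. Markers were listed for preadipocytes, adipocytes, leukocytes, endothelium, mural and liver cells.

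The smallest difference between libraries of a group was 2.44 times the sampling noise, so none was counted as a duplicate. Pairs were compared over genes with at least 20 counts. Totals of 24327816 to 33471980 counts limit the precision for Cfb, Cfd and Cd55, and intervals cover counting error only. The labels name no batch. Same-numbered libraries shared no deviation (correlations -0.0753 to 0.0795).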

Additional observations from a re-analysis of the deposited data

Results flagged for a closer look

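Effects of FGF6 that differed between times by edgeR's interaction test (FDR under 0.05) are listed as differences in log2 fold change, each effect against vehicle of its own time. At 8 h against 4 h they were -0.98 for C3, -0.80 for C4b, -1.06 for C1s1, -0.85 for C1ra and -1.01 for Serping1. At 24 h against 8 h they were -3.35 for C3, -4.17 for C4b, -4.51 for C1s1 and -3.78 for C1ra. At 24 h against 4 h they were -4.34 for C3, -4.98 for C4b, -5.58 for C1s1, -4.63 for C1ra, -2.52 for Cfb and -1.70 for Serping1.

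The other complement genes are listed here only where they reached a mean of 1 CPM in any group. Among them, the difference at 24 h against 4 h was negative for C1rl (-1.06), Masp1 (-0.80), C8g (-0.99), Clu (-3.28), Cd59a (-1.39) and Itgax (-1.90). It was positive for Cd93 (1.83), Cd46 (0.95) and Cr1l (0.29). For Colec10, which passed the filter on low counts through the FGF6 groups, the difference was 3.34 and is given as a description. Without vehicle replicate 3 of 24 h, the library that stood apart from its group, the members' differences at 24 h against 4 h were -4.38 for C3, -5.01 for C4b, -5.55 for C1s1, -4.62 for C1ra, -2.74 for Cfb and -1.83 for Serping1. The test for single outlying libraries needs at least 4 per group and was not applied to groups of 3.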

How the results depend on the processing

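The calls of C3, C4b, C1s1, C1ra and Serping1 at 8 and 24 h and of Cfb at 24 h kept their direction and passed the threshold under each alternative in which they were tested, except that C4b at 8 h (-0.87) did not reach a 2-fold minimum. C4b and Cfb were dropped by a minimum of 10 counts in every library, and Cfb by the filter within 8 or 24 h libraries. The calls lower among the 6 genes at 4 h numbered 2 in the fit as reported, 1 with DESeq2 (C1s1 was lost), 0 with a 2-fold minimum and 0 to 2 when single libraries were left out. At the 2-fold minimum 6.38% of all tested genes were lower at 4 h. With a 2-fold minimum 2 of the effects at 8 h against 4 h were called, and the vehicle decreases numbered 0 from 4 to 8 h, 1 from 8 to 24 h and 3 from 4 to 24 h. The share of all genes at that minimum was not computed for these comparisons between times, so these counts cannot be set against it. In the list of 51, lower calls at 4 h were 5 with library size alone and 5 at an FDR under 0.25, and 1 with a 2-fold minimum, beside 6.38% of all tested genes. Higher calls at 4 h were 1 with a 2-fold minimum, beside 4.96%, and 3 to 5 when single libraries were left out, the 3 without vehicle replicate 1. Lower calls at 8 h were 5 with a 2-fold minimum, beside 10.9%. Higher calls at 8 and 24 h were 3 and 3 with 10 counts in every library. For the settings other than the 2-fold minimum no share of all tested genes is given, so those counts are a description.

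Values that changed sign were all uncalled. At 4 h Cfb was 0.028 with limma and 0.0093 with the libraries of that time, and Serping1 was 0.0083 with 10 counts in every library, 0.0014 with DESeq2 and 0.019 with the libraries of that time. C4a was -0.025 at 4 h with library size alone, and its difference between 24 and 4 h was 0.079, 0.027 and 0.055 with library size, upper quartiles and limma and 0.29 without vehicle replicate 3 of 24 h, a setting chosen after seeing the data. In that setting the Serping1 difference between 24 and 8 h was called (-0.83). That of Cfp was 0.083 with library size and 0.033 with upper quartiles. When single libraries were left out, values at 4 h ran from -0.067 to 0.038 for C3, -0.10 to 0.029 for C4b, -0.20 to 0.29 for Cfb, -0.12 to 0.082 for Serping1, -0.027 to 0.15 for C4a, -0.043 to 0.42 for Colec10, -0.071 to 0.024 for Cr1l and -0.18 to 0.0090 for Itgax. C4a ran from -0.040 to 0.33 at 8 h and from -0.17 to 0.39 at 24 h, and Cd46 from -0.085 to 0.12 at 24 h. The Cd46 difference between 24 and 4 h was not called without a low-count filter (FDR = 0.112) or with DESeq2 (FDR = 0.075). The cause was not tested. The library-size setting moved the median of all genes at 4 h to -0.15 and the lower share of calls from 54.5% to 66.7%.

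Same-numbered libraries did not deviate together (0 of 9 correlations over 0.1, 4 of 9 best with their own number). With the replicate block the 6 genes gave 2, 5 and 6 lower calls at 4, 8 and 24 h, as without it, and C4b was -5.04 at 24 h. Over all 15071 genes the block gave 9465, 10686 and 11116 calls at these times, of which 54.6%, 54.2% and 51.3% were lower.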
